A study of Mus musculus with 24 samples.

Results

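The TRBV12 and TRBV13 families are small groups of V segments of the mouse T cell receptor β chain. Their 5 members listed in the deposited tables, TRBV12-1, TRBV12-2, TRBV13-1, TRBV13-2 and TRBV13-3, were taken by name from the 22 V segments of the Tcrb libraries, and the rule that lists them uses no measured value. The libraries came from thymocytes of mice on the C57BL/6 background, aged 4 to 12 weeks. The Satb1 knockout group (KO, genotype Satb1-/- in the labels) had 3 Tcrb libraries and the wild-type group (WT) had 3. The series design calls the knockout conditional, and neither the deleting Cre line nor its promoter is named in the labels. The other receptor chains of the series, which holds 24 libraries over 4 chains, were not used here. Total RNA had been amplified by 5′ RACE, which extends each transcript to its 5′ end and reads it from a primer in the constant region. The deposited values give, for each V–J pair, its percentage among all V–J assignments of the library.

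The β chain gene is assembled in immature thymocytes by joining a D segment to a J segment and then a V segment to the joined pair. The J segments lie in the TRBJ1 and TRBJ2 clusters, each behind its own D segment and ahead of its own constant gene. The older names of the TRBV12 and TRBV13 members are Vβ5 and Vβ8. The Vβ5 proteins are recognised by superantigens of mouse mammary tumour viruses presented by the class II molecule I-E, which C57BL/6 mice lack. The Vβ8 proteins are recognised by staphylococcal enterotoxin B, and TRBV13-2 is the main β chain segment of invariant natural killer T cells. Satb1 encodes a DNA-binding protein of the nucleus that shapes chromatin loops in thymocytes. The tables list receptor segments only, so neither the loss of Satb1 nor the thymocyte label could be checked against other genes.

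The 5 members lie next to each other and in the same orientation in the GENCODE M21 annotation (GRCm38), on the plus strand of chromosome 6. Their order is Trbv12-1 (41113550 to 41114067), Trbv13-1 (41116007 to 41116468), Trbv12-2 (41118851 to 41119364), Trbv13-2 (41121396 to 41121832) and Trbv13-3 (41130147 to 41130585). The whole group spans 17.04 kb, and its last member ends 402.6 kb before Trbd1. Neighbours were 1939, 2382 and 2031 bases apart over the first 4 members, and 8314 bases separated Trbv13-2 from Trbv13-3. The pseudogene Trbv12-3 (41127592 to 41128076) is annotated within that last gap and is not listed in the deposited tables. Each member has a leader exon and a V exon, and the V exon has 293 bases in the TRBV12 members and 294 in the TRBV13 members.

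The 3′ ends of the V exons are shown because a call of V segment has to tell the members apart there or further upstream. The last 90 bases of each V exon, read from the GENCODE M21 transcripts, are given with the positions at which members of the same family differ in capitals.
TRBV12-1, chr6:41113978-41114067, plus strand: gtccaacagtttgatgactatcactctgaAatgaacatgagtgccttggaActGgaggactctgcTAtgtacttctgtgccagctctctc
TRBV12-2, chr6:41119275-41119364, plus strand: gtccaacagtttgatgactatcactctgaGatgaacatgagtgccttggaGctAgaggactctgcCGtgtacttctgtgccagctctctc
TRBV13-1, chr6:41116379-41116468, plus strand: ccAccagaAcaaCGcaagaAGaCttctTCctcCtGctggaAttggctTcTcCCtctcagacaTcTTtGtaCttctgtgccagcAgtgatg
TRBV13-2, chr6:41121743-41121832, plus strand: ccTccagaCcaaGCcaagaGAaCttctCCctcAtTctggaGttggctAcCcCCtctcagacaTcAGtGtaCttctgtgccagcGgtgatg
TRBV13-3, chr6:41130496-41130585, plus strand: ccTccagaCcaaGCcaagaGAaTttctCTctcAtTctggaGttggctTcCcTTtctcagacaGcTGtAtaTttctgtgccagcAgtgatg

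Over the whole V exon TRBV12-1 and TRBV12-2 were 89.1% identical and differed at 32 positions, 5 of them in the last 90 bases. TRBV13-2 and TRBV13-3 were the closest pair of the TRBV13 family, with 91.8% identity and 10 differences in the last 90 bases. TRBV13-1 was 88.8% identical to TRBV13-2 and 86.1% identical to TRBV13-3, with 15 and 19 differences in that stretch. Members of different families were 51.0% to 53.8% identical. How the authors' segment caller treated reads that match more than 1 member is not stated in the labels, and the part of such reads in the shares of single members was not tested.

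The tables hold no counts, and the depth of the libraries is not given. The smallest value above 0 was 0.00570%, 0.0133% and 0.0110% in KO libraries 1, 2 and 3, against 0.00657%, 0.00809% and 0.00890% in WT libraries 1, 2 and 3, which makes KO library 2 the coarsest. All 55 V–J pairs of the members were above 0 in every library, and the smallest member pair of a library held between 0.0623% and 0.105%. The labels do not say that the replicates are separate mice, so the p-values below measure only the spread between these libraries. In bulk RNA, fewer cells that use a segment and fewer transcripts per cell cannot be told apart.

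The first comparison asked how much of the β chain repertoire the members held in each genotype. Together they held 34.0%, 30.0% and 32.0% of the 3 KO libraries (32.0% ± 2.00, SD, n = 3) and 34.8%, 33.4% and 34.9% of the 3 WT libraries (34.4% ± 0.840, SD, n = 3). The highest KO library lay above the lowest WT library, so the ranges overlapped, while KO minus WT at equal replicate numbers was -0.879, -3.45 and -2.88 percentage points. No member's share passed the test, and the KO and WT ranges of all 5 overlapped, while they were apart for 3 of the 22 V segments with KO above WT (13.6%) and for 1 with KO below WT (4.55%). None of the 22 V segments passed it (0%), tested with limma on log2(percent + 0.00570) with Benjamini-Hochberg adjustment over all 22 and calls at an adjusted p below 0.05. Without adjustment 2 of the 22 were higher (9.09%) and 1 was lower (4.55%) at p below 0.05, none of them a member. With equal replicate numbers as a block, 2 of the 22 were called higher (9.09%) and 1 lower (4.55%), and again no member was called.

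By group mean TRBV12-1 was the most used V segment of the KO, and in WT it came next after TRBV13-2. It held 9.98%, 9.89% and 7.61% of KO libraries 1, 2 and 3, against 9.07%, 9.29% and 8.77% of WT libraries 1, 2 and 3. Libraries 1 and 2 of the KO were above every WT library and KO library 3 was below every one. The log2 fold change was 0.01 (SE 0.17, limma adjusted p = 0.992), and it turned negative without KO library 1 (-0.06), without KO library 2 (-0.05) or without WT library 3 (-0.01). TRBV12-2, the closest relative, held 4.60%, 5.23% and 4.49% in the KO and 5.13%, 5.05% and 4.71% in WT. Its 2 lowest values were KO libraries and so was its highest. The log2 fold change was -0.06 (SE 0.15, limma adjusted p = 0.950). TRBV12-1 made up 65.6% ± 2.79 of its family's assignments in the KO and 64.6% ± 0.632 in WT (SD, n = 3 each) with overlapping ranges.

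In the TRBV13 family, the sum of the members was 19.4%, 14.8% and 19.9% in the KO, against 20.6%, 19.1% and 21.4% in WT. KO library 2 stood below the other 5 libraries. TRBV13-1 held 7.73%, 5.12% and 7.02% in the KO and 8.11%, 7.38% and 8.99% in WT. Its mean was lower in the KO, 6.62% ± 1.35 against 8.16% ± 0.806 in WT (SD, n = 3 each), and each KO library lay below the WT library of the same number. The log2 fold change of -0.32 (SE 0.19) had an unadjusted limma p of 0.135, an adjusted p of 0.592 and a blocked adjusted p of 0.153. Without KO library 2 it was -0.14. TRBV13-2 held 8.52%, 7.49% and 9.70% in the KO and 9.76%, 8.86% and 9.54% in WT. KO libraries 1 and 2 were below all WT libraries and KO library 3 was above 2 of them, with a log2 fold change of -0.14 (SE 0.16, limma adjusted p = 0.854) that ranged from -0.23 to -0.04 when 1 library was left out. TRBV13-3, the least used member, held 3.14%, 2.23% and 3.18% in the KO and 2.77%, 2.84% and 2.88% in WT. Its log2 fold change was -0.01 (SE 0.18, limma adjusted p = 0.992). Without KO library 2, the lowest, it was 0.16, and without WT library 3 it was 0.01.

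**Figure D1:**
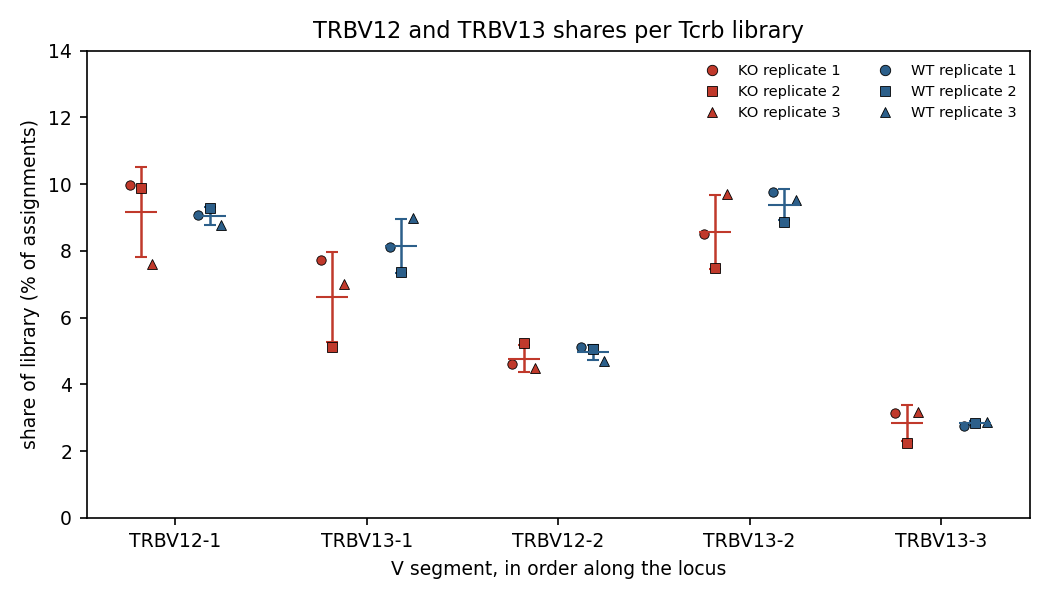
Share of each TRBV12 and TRBV13 member in the 3 KO and 3 WT Tcrb libraries (y axis, percent of assignments; x axis, members in order along the locus). Points are libraries and bars are means ± SD; the KO points of every member overlap the WT points and are spread more widely.

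The members' shares varied more among the KO libraries than among the WT libraries. The SD was larger in the KO for 5 of 5 members and for 14 of all 22 V segments. For TRBV13-3 it was 0.534 in the KO and 0.0592 in WT, and for TRBV12-1 it was 1.34 in the KO and 0.261 in WT. By group mean the order of use was TRBV12-1, TRBV13-2, TRBV13-1, TRBV12-2, TRBV13-3 in the KO, at ranks 1, 3, 5, 10 and 17 of the 22 V segments. In WT the order was TRBV13-2, TRBV12-1, TRBV13-1, TRBV12-2, TRBV13-3, at ranks 1, 2, 4, 9 and 17. In the KO only TRBV12-2 and TRBV13-3 were neighbours in that order with ranges apart. In WT the ranges of TRBV13-1 and TRBV12-2 were apart as well, while those of TRBV13-2 and TRBV12-1, and of TRBV12-1 and TRBV13-1, overlapped. Position along the locus therefore did not order the members, since by group mean the first and the fourth were the most used and the fifth the least.

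A ratio of 2 members within a library does not depend on the other V segments. Of the 10 ratios between members, 1 had KO and WT ranges that did not overlap (16.5% of the 231 ratios between any 2 V segments had such ranges). TRBV13-1 exceeded TRBV13-3 by 2.46, 2.29 and 2.21 times in the KO, against 2.93, 2.60 and 3.12 times in WT. TRBV13-3 in turn made up 16.2%, 15.1% and 16.0% of its family in the KO and 13.4%, 14.9% and 13.5% in WT, where the lowest KO value lay just above the highest WT value. The ratio of the TRBV13 to the TRBV12 family was 1.33, 0.982 and 1.64 in the KO and 1.45, 1.33 and 1.59 in WT, with overlapping ranges. KO library 2 was the only library in which the TRBV12 family was the larger one.

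As a description over the 6 libraries, the V segment whose share was most like that of TRBV13-1 was TRBV13-2 (Pearson r 0.808, Spearman rho 0.486), but r was -0.04 once the 2 libraries farthest from the median were left out. TRBV13-3 was most like TRBV13-1 (r 0.710, rho 0.143), and without its 2 farthest libraries r was -0.17. TRBV12-2 was most like TRBV24, a segment outside both families (r 0.936, rho 0.943, and 0.884 without the 2 farthest). However, TRBV24 held only 0.132% to 0.479% of a library, so its shares rest on few assignments. TRBV12-1 was most like TRBV4 (r 0.724, rho 0.371). Shares of 1 library add up to the same total, and the 6 points include both genotypes.

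The second comparison asked which J cluster the members were joined to. In WT, TRBV13-3 stood apart from the other members. By group mean it had the lowest TRBJ2 use of all 22 V segments in WT (60.9%), and in the KO it ranked 11 from the bottom. Other segments came close to it in WT with overlapping ranges, such as TRBV29 (61.7% ± 2.13) and TRBV26 (62.2% ± 4.36, SD, n = 3 each). For TRBV12-1, TRBV13-1, TRBV12-2 and TRBV13-2 KO minus WT in mean TRBJ2 use lay between -5.49 and -3.98 percentage points, and no member passed the test. The TRBJ2 cluster took 61.7% ± 2.54 of all assignments in the KO and 68.1% ± 0.996 in WT (SD, n = 3 each). Summed over the 17 other V segments it took 61.0% ± 2.50 in the KO and 68.5% ± 1.07 in WT, with every KO library below every WT library.

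TRBV12-1 was joined to TRBJ2 in 59.2%, 62.6% and 63.1% of its assignments in the KO and in 65.0%, 66.9% and 65.3% in WT. TRBV13-1 was joined to TRBJ2 in 62.8%, 62.3% and 64.9% in the KO and in 67.6%, 68.8% and 65.6% in WT. For both segments every KO library was below every WT library. TRBV12-2 gave 63.6%, 63.6% and 69.2% in the KO and 68.8%, 71.6% and 71.3% in WT. TRBV13-2 gave 62.7%, 60.2% and 69.3% in the KO and 67.1%, 71.4% and 70.1% in WT. For these segments KO library 3 reached into the WT range while the other KO libraries stayed below it. TRBV13-3 was joined to TRBJ2 in 57.9%, 60.7% and 67.5% in the KO and in 60.8%, 59.8% and 62.0% in WT, so its KO libraries lay on both sides of the WT libraries.

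**Figure D2:**
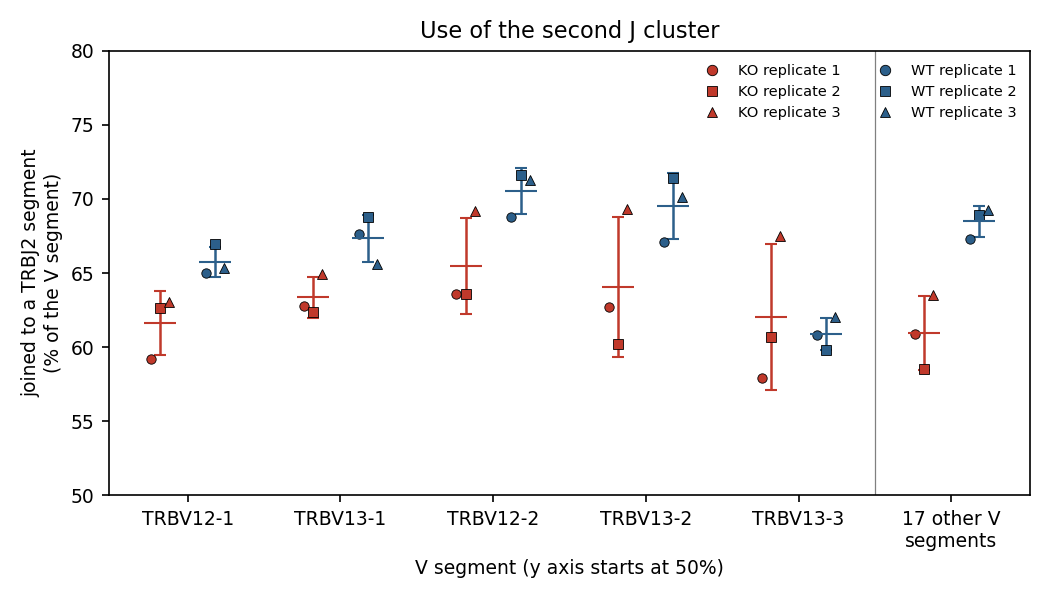
Percentage of each member's assignments that were joined to a TRBJ2 segment, in 3 KO and 3 WT libraries, beside the sum of the 17 other V segments (y axis starts at 50%). Points are libraries and bars are means ± SD; KO points lie mostly below WT points, except for TRBV13-3, and KO replicate 3 is the highest KO library in all 5 members.

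On the log2 scale, the ratio of TRBJ2 to TRBJ1 assignments within a segment changed by -0.26 for TRBV12-1 (SE 0.17, limma adjusted p = 0.189), by -0.25 for TRBV13-1 (SE 0.17, adjusted p = 0.189), by -0.34 for TRBV12-2 (SE 0.17, adjusted p = 0.141) and by -0.35 for TRBV13-2 (SE 0.19, adjusted p = 0.141). For TRBV13-3 the difference was 0.07 (SE 0.18, limma adjusted p = 0.693). No member was called, against 4 of all 22 V segments, all lower in the KO (18.2%). Ranges that did not overlap, KO below WT, were found for 2 of 5 members and for 10 of 22 V segments (45.5%). The difference was below 0 in 4 of 5 members and in 20 of 22 V segments (90.9%), and the exceptions were TRBV13-3 and TRBV24, a segment with a mean share of 0.278% in the KO and 0.337% in WT. The median was -0.26 over the members and -0.35 over all 22 V segments. At an unadjusted p below 0.05, 8 of 22 were lower (36.4%), none of them a member. KO library 3 had the highest TRBJ2 use of the KO. Without it 11 of the 22 V segments were called, and among them TRBV12-2 (-0.46, limma adjusted p = 0.0325) and TRBV13-2 (-0.52, adjusted p = 0.0292) were called lower, and TRBV13-3 turned to -0.10 (adjusted p = 0.583).

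As a share of the whole library, TRBV13-1 with TRBJ2 made up 4.85%, 3.19% and 4.56% in the KO, against 5.49%, 5.07% and 5.90% in WT. TRBV12-2 with TRBJ2 made up 2.92%, 3.32% and 3.11% in the KO, against 3.53%, 3.62% and 3.35% in WT. In both cases all KO libraries lay below all WT libraries, as in 5 of all 22 V segments (22.7%). TRBV12-1 with TRBJ2 (5.63% ± 0.736 in the KO, 5.95% ± 0.249 in WT) and TRBV13-2 with TRBJ2 (5.52% ± 1.12 in the KO, 6.52% ± 0.185 in WT, SD, n = 3 each) overlapped between genotypes. With TRBJ2, ranges were apart with KO above WT for 2 of 22 segments (9.09%), none of them a member. With TRBJ1 all 5 members overlapped, while 4 of 22 segments were higher in every KO library (18.2%). TRBV13-3 with TRBJ2 was 1.77% ± 0.395 in the KO and 1.72% ± 0.0574 in WT, and with TRBJ1 1.08% ± 0.226 in the KO and 1.11% ± 0.0300 in WT (SD, n = 3 each).

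To set each member against the rest of its own library, the log2 ratio of TRBJ2 to TRBJ1 within the segment was taken relative to the same ratio summed over the other 21 V segments. TRBV13-3 differed most among the members. Its TRBJ2 use lay -3.27, 1.19 and 3.06 percentage points from that of the other V segments in the KO, and -6.34, -9.24 and -6.73 points in WT. All 3 WT libraries used TRBJ2 less with TRBV13-3 than with the other segments, and all 3 KO libraries were above them. On the log2 scale KO exceeded WT by 0.49 (SE 0.15, an unadjusted p of 0.00593 by limma), which did not pass after adjustment over the 22 segments (adjusted p = 0.130). The adjusted p ranged from 0.0328 to 0.506 over the alternative settings, and it passed with a pseudocount of 0.0570% (0.0328) and when only V segments of at least 1% were tested (0.0445). The log2 difference stayed between 0.41 and 0.60 when any 1 library was left out.

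The other members differed less from the rest of their libraries. The log2 difference was 0.16 for TRBV12-1 (SE 0.15, limma adjusted p = 0.710), 0.16 for TRBV13-1 (SE 0.15, adjusted p = 0.710), 0.07 for TRBV12-2 (adjusted p = 0.835) and 0.06 for TRBV13-2 (adjusted p = 0.858). For TRBV12-1 the KO values lay above the WT values on this scale, although the percentage differences overlapped (-2.11, 3.43 and -1.57 points in the KO, -2.14, -2.07 and -3.57 points in WT). No V segment was called (0%). At an unadjusted p below 0.05, 2 of 22 were higher (9.09%), of which TRBV13-3 was 1, and 2 were lower (9.09%), none of them a member. Ranges with KO above WT were found for 2 of 22 segments (9.09%), TRBV12-1 and TRBV13-3. The difference was above 0 for 5 of 5 members and for 14 of all 22 V segments (63.6%), with a median of 0.16 over the members and 0.06 over all. Without KO library 3 the difference of TRBV13-2 was -0.03.

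**Figure D3:**
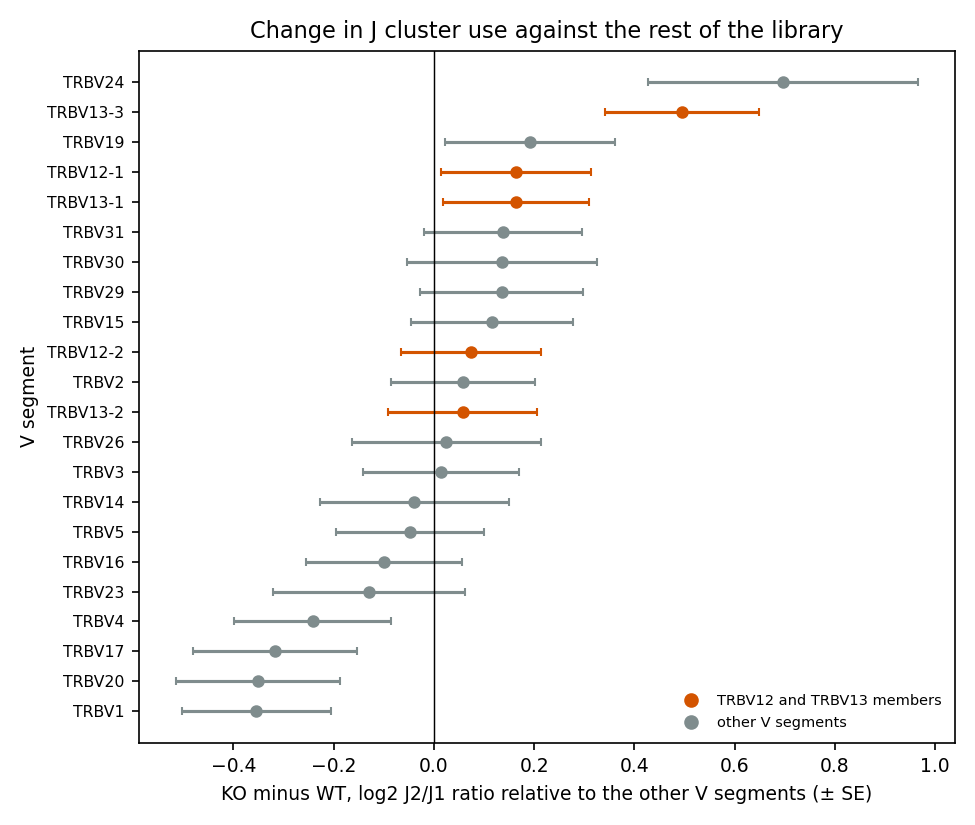
Difference between KO and WT in the log2 ratio of TRBJ2 to TRBJ1 assignments, relative to the other V segments of the same library, for each of the 22 V segments (points, limma estimate; bars, ± SE; positive is higher in the KO). TRBV13-3 ranks behind TRBV24 only, at 0.49, and the other 4 members lie between 0.06 and 0.16.

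The third comparison looked at single J segments. By mean over the 6 libraries the members shared the same most and least used J segments: TRBJ2-7 came first in all 5 and TRBJ1-5 came last. Over the 6 libraries TRBJ2-7 took 15.6% of TRBV12-1, 15.0% of TRBV13-1, 16.8% of TRBV12-2, 16.5% of TRBV13-2 and 15.7% of TRBV13-3, against 15.3% of all V segments. TRBJ1-5 took between 2.03% and 3.94% of a member. The second place differed: it was TRBJ2-5 in TRBV12-2 (13.0%) and TRBV13-2 (12.0%), TRBJ2-1 in TRBV12-1 (12.1%) and TRBV13-3 (13.0%), and TRBJ2-3 in TRBV13-1 (12.5%). TRBJ2-5 and TRBJ2-7 are shown because the largest share and the most frequent difference between genotypes among the members fall on them. Both germline segments lie on the plus strand of chromosome 6 in GRCm38 and are given whole.
TRBJ2-5, chr6:41543453-41543501, plus strand: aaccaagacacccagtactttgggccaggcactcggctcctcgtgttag
TRBJ2-7, chr6:41543810-41543856, plus strand: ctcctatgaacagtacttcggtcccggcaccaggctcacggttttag

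TRBJ2-5 took a smaller mean share of each of the 5 members in the KO than in WT, as it did of all V segments (10.5% ± 0.583 in the KO and 12.2% ± 0.940 in WT, SD, n = 3 each). In TRBV13-2 it took 9.36%, 9.24% and 11.7% in the KO, against 12.7%, 14.3% and 14.9% in WT. The log2 difference was -0.47 (SE 0.19, an unadjusted p of 0.0358 and an adjusted p of 0.416 by limma). In TRBV12-2 it took 12.5%, 8.91% and 12.0% in the KO, against 15.0%, 15.1% and 14.6% in WT, a log2 difference of -0.43 (SE 0.20, limma adjusted p = 0.464). In TRBV13-1 it took 9.14%, 8.57% and 8.45% in the KO, against 9.80%, 10.5% and 12.1% in WT. For these 3 members every KO library was below every WT library. In TRBV13-3 the ranges overlapped, with 7.99%, 5.95% and 7.27% in the KO and 11.2%, 12.5% and 7.41% in WT (log2 difference -0.52, SE 0.24, limma adjusted p = 0.464). TRBV12-1 differed least, with 8.55% ± 0.846 in the KO and 8.97% ± 0.580 in WT (SD, n = 3 each).

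Of the 54 J shares within a member that were tested, none was called, as none was among the 209 tested over all V segments (limma, 0%). At an unadjusted p below 0.05 there were 2 of 54, TRBV13-2 with TRBJ2-5 and TRBV13-1 with TRBJ2-2, against 14 of 209 higher (6.70%) and 6 of 209 lower (2.87%). Ranges were apart with KO above WT for 3 of 54 (10.0% of all 209) and with KO below WT for 6 of 54 (6.70% of all 209). TRBV13-1 held 5 of these 9 differences, more than any other member. Within it TRBJ2-1, TRBJ2-5 and TRBJ2-7 were lower and TRBJ1-1 and TRBJ2-2 were higher in every KO library. Over all V segments together TRBJ2-1 and TRBJ2-5 were lower in every KO library too, while the ranges of TRBJ2-7 and TRBJ1-1 overlapped. TRBJ2-2 took 7.74%, 8.57% and 5.79% of TRBV13-1 in the KO, against 5.75%, 5.48% and 3.96% in WT, where the lowest KO value barely exceeded the highest WT value. Its log2 difference was 0.53 (SE 0.23, an unadjusted p of 0.0457 and an adjusted p of 0.464 by limma). Within TRBV13-1 it thus ran against the direction of its cluster, as did the mean of TRBJ2-4 (11.3% in the KO, 10.7% in WT). Over all V segments together TRBJ2-2 did not fall either. It took 6.34% ± 0.662 in the KO and 6.21% ± 0.466 in WT (SD, n = 3 each), with overlapping ranges. TRBV13-2 held 3 of the 9, with TRBJ1-1 higher in the KO and TRBJ2-3 and TRBJ2-5 lower, and TRBV12-2 held 1, TRBJ2-5. In TRBV13-2 TRBJ1-4 took 10.8%, 14.7% and 7.70% in the KO and 9.29%, 6.58% and 7.65% in WT, a log2 difference of 0.46 (SE 0.26, limma adjusted p = 0.516). The KO libraries spread over a wider range than the WT libraries there. Over all V segments together TRBJ1-4 took 10.2% ± 1.26 in the KO and 8.08% ± 0.156 in WT (SD, n = 3 each), with ranges apart. In TRBV12-2 TRBJ1-3 took 7.43%, 6.62% and 2.93% in the KO and 4.23%, 2.88% and 4.35% in WT, with overlapping ranges and a log2 difference of 0.47 (SE 0.34, limma adjusted p = 0.560) that was 0.88 without KO library 3 and 0.23 without KO library 1. TRBV12-1 and TRBV13-3 had no J segment with ranges apart.

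**Figure D4:**
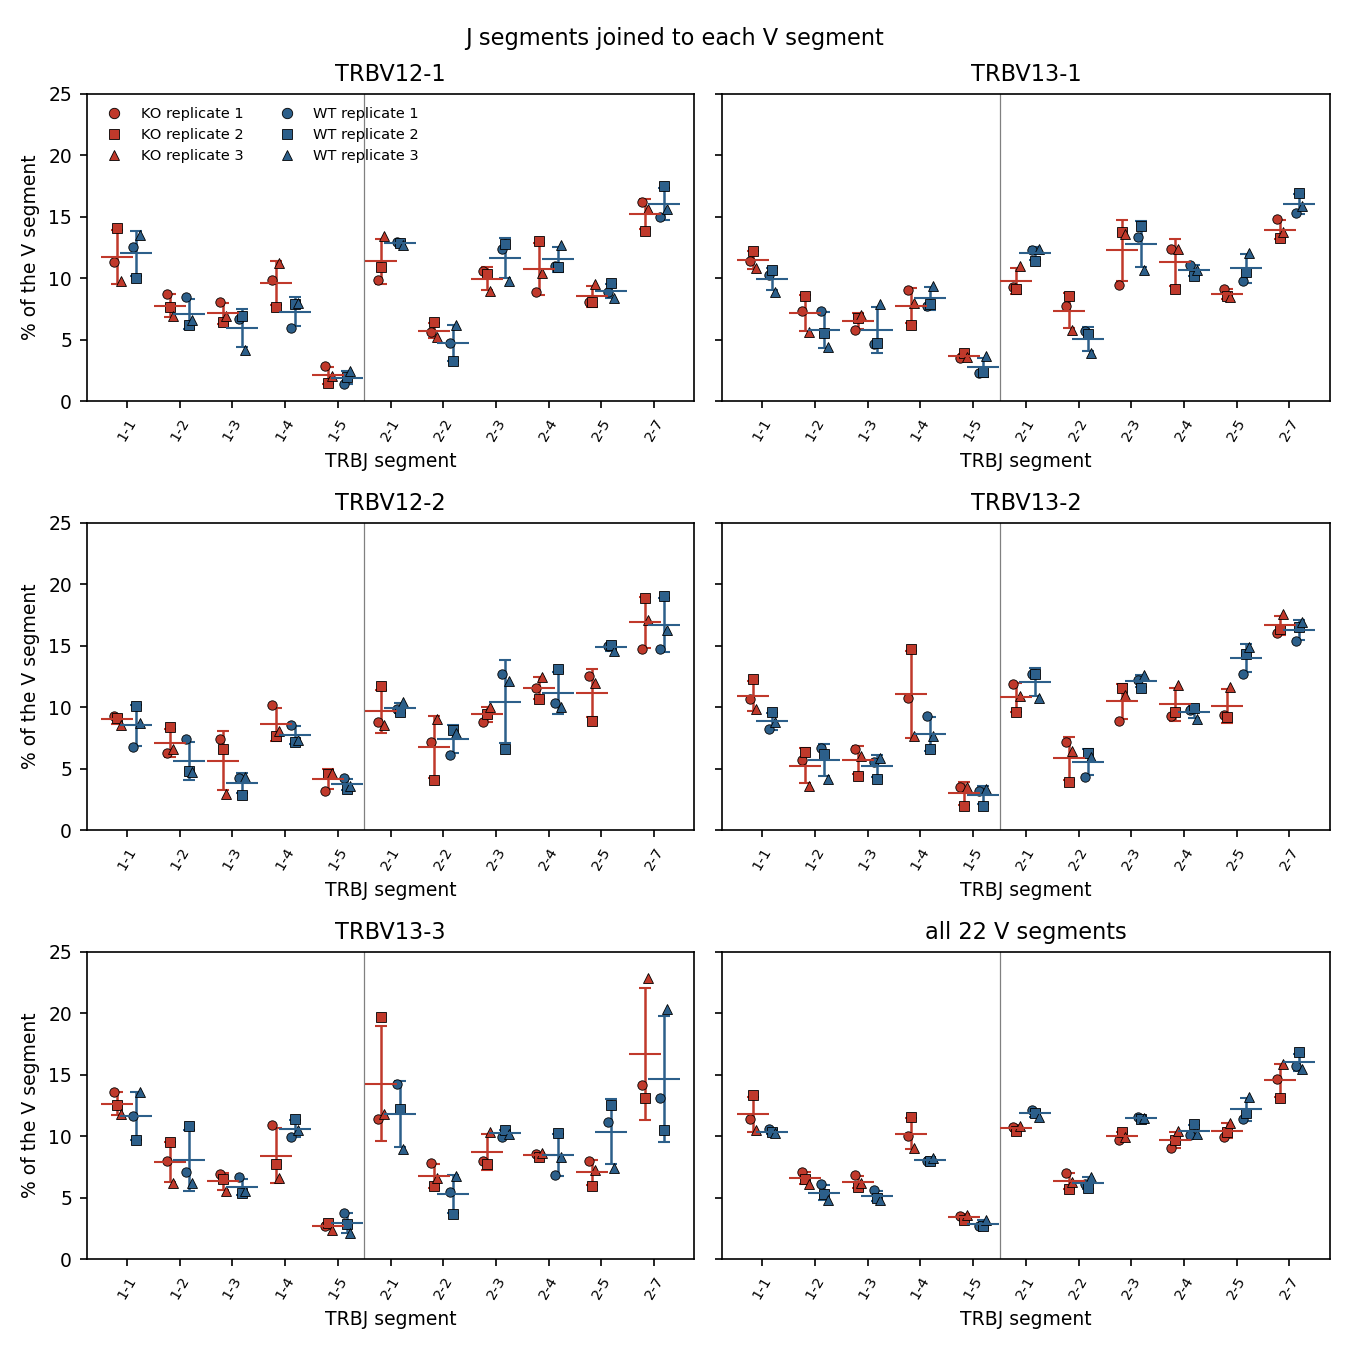
J segments joined to each member and to all 22 V segments, as percent of the V segment's assignments, in 3 KO and 3 WT libraries (x axis, TRBJ segments in order; the vertical line parts the TRBJ1 from the TRBJ2 cluster). Points are libraries and bars are means ± SD. By group mean TRBJ2-7 is the highest and TRBJ1-5 the lowest in every panel, though not in every library. TRBJ2-5 lies lower in the KO in TRBV12-2, TRBV13-1 and TRBV13-2.

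Among the members, the J profile of TRBV13-3 varied most, and its largest J segments differed between libraries of the same genotype. TRBV13-3 was also the least used member, with 2.23% to 3.18% of a library, so its profile rests on the fewest assignments. How much of its spread comes from counting was not tested. TRBJ2-7 took 14.2%, 13.1% and 22.8% of it in the KO and 13.1%, 10.5% and 20.4% in WT. Library 3 was the highest in each genotype. TRBJ2-1 took 11.4%, 19.6% and 11.8% in the KO and 14.3%, 12.3% and 8.95% in WT, so that KO library 2 used it most.

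How far 2 J profiles lie apart was measured as the percentage points that would have to move to another J segment to make them equal. The largest distances within a genotype were those of TRBV13-3, the least used of the 5 members. Its mean distance was 12.2 points between KO and WT libraries, 12.1 points among KO libraries and 13.4 points among WT libraries. For TRBV12-1 it was 8.36 points between the genotypes, 9.08 among KO and 7.80 among WT libraries. In both segments the distance between genotypes lay between the distances within them. TRBV13-1 was the member whose distance between genotypes (9.74 points) most exceeded both distances within them (7.76 among KO and 7.32 among WT libraries). For TRBV12-2 the distances were 10.5 points between, 10.0 among KO and 8.86 among WT libraries. For TRBV13-2 they were 9.56 points between, 10.2 among KO and 6.40 among WT libraries. These distances were not tested.

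Among the members, only TRBV13-1 had its closest J profile within its own family. Averaged over the 6 libraries, the profile closest to that of TRBV12-1 was that of TRBV13-1, at 8.33 points, and the closest to TRBV12-2 was TRBV13-2, at 8.17 points. The closest to TRBV13-1 was TRBV13-2 at 8.10 points, and the closest to TRBV13-2 was TRBV3, outside both families, at 7.28 points. TRBV13-3 had its closest profile, TRBV12-1, at 10.8 points. TRBV12-1 and TRBV12-2, whose last 90 bases differ at 5 positions only, were 12.5 points apart. A single member lay on average 6.40 to 13.4 points from itself between libraries of the same genotype. TRBV12-2 and TRBV13-3, of different families, were 14.4 points apart on average over the 6 libraries, beyond that range. The distances of all other pairs of members fall in it. As a set, the distances therefore cannot decide whether J profiles group by family.

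As shares of the library, none of the 54 tested V–J pairs of the members was called, nor was any of the 209 pairs tested over all V segments (limma, 0%). The pair of TRBV13-3 with TRBJ1-5 did not reach the mean share of 0.1% needed for the test. Ranges were apart with KO above WT for 2 of 54 (10.0% of all 209) and with KO below WT for 7 of 54 (8.13% of all 209). The median log2 fold change was -0.06 over the members' pairs and 0.01 over all pairs. TRBV13-1 held 4 of the 7 lower pairs, with TRBJ2-1, TRBJ2-3, TRBJ2-5 and TRBJ2-7. With TRBJ2-5 it made up 0.707%, 0.439% and 0.593% of the KO libraries and 0.795%, 0.777% and 1.09% of the WT libraries (log2 fold change -0.62, SE 0.29, limma adjusted p = 0.394). With TRBJ2-1 it made up 0.718%, 0.465% and 0.769% in the KO and 0.999%, 0.841% and 1.11% in WT (log2 fold change -0.62, SE 0.29, limma adjusted p = 0.394). KO library 2 was the lowest in both pairs. Over all V segments together TRBJ2-1, TRBJ2-3 and TRBJ2-5 were also lower in every KO library, while the ranges of TRBJ2-7 overlapped.

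TRBV13-2 with TRBJ2-5 was the only member pair with an unadjusted p below 0.05 (0.0498 by limma, adjusted p = 0.394), against 16 of 209 pairs higher (7.66%) and 9 of 209 lower (4.31%). It made up 0.798%, 0.691% and 1.13% of the KO libraries and 1.24%, 1.27% and 1.42% of the WT libraries, with a log2 fold change of -0.61 (SE 0.28). TRBV12-2 with TRBJ2-5 made up 0.576%, 0.465% and 0.538% in the KO and 0.769%, 0.760% and 0.685% in WT. Both pairs were lower in every KO library than in any WT library.

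Among pairs with TRBJ1, TRBV12-1 with TRBJ1-4 was higher in every KO library. It made up 0.986%, 0.758% and 0.857% in the KO and 0.539%, 0.736% and 0.703% in WT (log2 fold change 0.40, SE 0.27, limma adjusted p = 0.566). TRBJ1-4 was higher in every KO library over all V segments together as well, with 10.1%, 11.5% and 9.03% in the KO and 8.03%, 7.96% and 8.26% in WT. TRBV12-2 with TRBJ1-3 had a similar log2 fold change of 0.42 (SE 0.37, adjusted p = 0.684), but its KO values of 0.342%, 0.346% and 0.132% lay on both sides of the WT values of 0.217%, 0.146% and 0.205%. This fold change ranged from 0.19 (without KO library 2) to 0.86 (without KO library 3). TRBV13-3 with TRBJ2-2 made up 0.245%, 0.133% and 0.209% in the KO and 0.151%, 0.105% and 0.196% in WT, with a log2 fold change of 0.36 (SE 0.32, adjusted p = 0.684) that ranged from 0.14 (without WT library 2) to 0.61 (without KO library 2).

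The members were set beside the other V segments grouped by position along the locus. The median log2 fold change of the V share was -0.06 over the 5 members and -0.00 over the 5 distal segments TRBV1 to TRBV5. It was -0.04 over the 6 central segments TRBV14 to TRBV20. Over the 5 segments TRBV23 to TRBV30, the last ones before the D segments, it was 0.15. For TRBV31 alone, which lies past the D and J segments, it was -0.24, and over all 22 it was -0.01. The ratio of TRBJ2 to TRBJ1 was called lower in 0 of 5 members, 2 of 5 distal segments and 2 of 6 central segments. It was called lower in 0 of the 5 segments TRBV23 to TRBV30. Of the 3 V segments typical of invariant natural killer T cells, TRBV13-2, TRBV29 and TRBV1, none had a called V share. They did not move together. TRBV29 was higher in every KO library (log2 fold change 0.26), while TRBV13-2 (-0.14) and TRBV1 (-0.06) had overlapping ranges. TRBV1 was called lower for the TRBJ2 to TRBJ1 ratio (limma adjusted p = 0.00689). Of 4 segments whose T cells mammary tumour virus superantigens remove in mice with I-E, TRBV12-1, TRBV12-2, TRBV16 and TRBV15, none had a called V share without the block. With the block the V share of TRBV15 was called lower, the only 1 of all 22 V segments called lower (4.55%).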

How the data were processed

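Each deposited Tcrb table, made by the authors, lists 22 V segments against 11 J segments in percent of the library's assignments. Reads (paired, 150 nt) were trimmed with fastp, per the submitters' processing notes; the aligner, segment caller, build and counted unit (reads or distinct clonotypes) were "not given in the sources used here". No label names molecular identifiers. Deep or shallow libraries therefore weigh equally, reads of an abundant clone may raise its pair, and no counting intervals were computed.

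V shares, V–J pair shares, J shares within a V segment, and TRBJ2 to TRBJ1 ratios were compared between KO and WT (n = 3 each) by limma 3.58.1 (R 4.3.3) on log2 values with a pseudocount of 0.00570%, the lowest nonzero value in any Tcrb library. Features needed a mean share of 0.1%. Benjamini-Hochberg adjustment ran over all features of a kind. Members, lists and tests were chosen with earlier results of these data known. The text names all 5 members and, for pairs and for J shares, the 3 highest and 3 lowest log2 fold changes, with the 2 most used J segments of each member; features with ranges apart or an unadjusted p below 0.05 were added after their values were seen. Equal replicate numbers were taken to pair libraries where residuals correlated above 0.1 for all 3 numbers, a hint from the data and not from the labels. This held for V shares (r of 0.767, 0.610 and 0.489) and pairs (0.375, 0.250 and 0.324), and did not hold for the other 3 kinds. Positions and sequences come from GENCODE M21 (GRCm38). Python 3.11.15 with pandas 2.3.3 and matplotlib 3.10.9 served for the rest.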

Additional observations from a re-analysis of the deposited data

How the results depend on the processing

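None of the 5 member shares, and none of the members' tested pairs and J shares, was called under the alternatives run. The count of called V segments was 0 as reported, 1 when only segments of at least 1% were tested, 3 with the replicate block, 3 with a variance trend and robust prior, 2 on centred log-ratios, 2 on the percent scale and 0 to 1 without 1 library. The count of called pairs was 0 as reported, 2 with 10 times the pseudocount, 4 with the variance trend and 0 to 2 without 1 library. Segments called for the TRBJ2 to TRBJ1 ratio numbered 4 as reported, 7 with 10 times the pseudocount, 8 with the 1% filter, 8 with the replicate block (whose numbers do not pair libraries there), 7 with the variance trend and 3 to 11 without 1 library, with 11 without KO library 3. For the ratio relative to other segments the count was 0 as reported, 2 with 10 times the pseudocount, 1 with the 1% filter and 0 to 1 without 1 library. J shares gave 0 throughout, the replicate block included. The cause of these changes was not tested. Signs turned for V shares near 0 (TRBV12-1, -0.0593 to 0.14 without 1 library; TRBV13-3, -0.0949 to 0.16 without 1 library, and 0.0204 percentage points on the percent scale), for the TRBV13-3 ratio (-0.10 to 0.20 without 1 library) and for the relative ratio of TRBV13-2 (-0.0319 to 0.12 without 1 library). The summed share of the 5 members differed by -2.41 points as reported and by -3.40 to -1.40 without 1 library. Of 351 alternative values of single segments, pairs and ratios, 339 kept their direction and their side of the threshold. The replicate block changed no other call. Depth is not given, and what it limits was not measured.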
